A study of Mus musculus with 20 samples.

Results

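Malat1, Neat1, Gas5, Snhg1, Mirt1, Mirt2 and Kcnq1ot1 are 7 long noncoding RNA (lncRNA) genes grouped under the name abundant or inflammation-linked. Not all of them were abundant here. They were selected on measured values, since the lower level of Mirt1 in high glucose was part of the choice, and they were found by symbol among the 14456 genes of the normalized count table. Of the 7 genes, 6 are listed. Mirt2 has 2 entries in the GENCODE M21 annotation, both on chromosome 15, and neither is among the listed genes, so no value is given for it. The listed genes include 1941 that GENCODE M21 holds as lncRNA genes.

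The cells were bone marrow-derived macrophages (BMDM), grown for 6 days in 25 ng/ml M-CSF, the macrophage growth factor, from the marrow of male C57BL/6J mice aged 8 to 12 weeks. In the first experiment the medium held 25 mM glucose for 24 h (the high glucose group) or 5.5 mM glucose plus 19.5 mM mannitol, a sugar alcohol that balances the osmotic pressure (the normal glucose group), with 4 libraries in each. In the second, naive BMDM were exposed for 24 h to PBS, to exosomes from BMDM kept in normal glucose (BMDM-NG-exo) or to exosomes from BMDM kept in high glucose (BMDM-HG-exo), with n = 4 libraries each and 2000000000 exosome particles per ml. Each exosome library of a group carries 1 of 4 dates, and each date occurs once per group, with exosomes from separate preparations.

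The libraries held between 34016445 and 56310712 reads. All 10 macrophage markers were listed, with a summed normalized count between 649310 and 900560 in a library, while none of the T and NK cell, dendritic cell or erythroid markers were listed. The listed markers of other cells added up to between 164.8 and 377.7 for 5 neutrophil and granule genes, 173.9 and 421.3 for 4 stromal genes, 280.3 and 456.1 for 2 endothelial genes and 17.4 and 68.0 for 1 B cell gene. Nothing says whether the 4 glucose libraries of a group came from separate animals, so p-values measure the spread between these libraries.

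Long noncoding RNAs are transcripts without a long reading frame, and many of them act in the nucleus. Malat1 collects in nuclear speckles, where splicing factors are stored, and Neat1 is the scaffold of paraspeckles, nuclear bodies that hold RNA and RNA-binding proteins. Gas5 and Snhg1 are host genes that carry small nucleolar RNAs (snoRNAs) in their introns, and their spliced RNAs are removed by nonsense-mediated decay, a pathway coupled to translation. Kcnq1ot1 is an unspliced antisense RNA made from the paternal chromosome, which silences neighbouring genes of an imprinted cluster. Mirt1 and Mirt2 are lncRNAs described in injured heart tissue, and Mirt2 is known as a brake on signalling from the lipopolysaccharide receptor TLR4 through TRAF6.

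All coordinates are GRCm38. Malat1 (ENSMUSG00000092341) lies at chr19:5795690-5802672 on the minus strand and is annotated as 1 exon of 6983 bases. Neat1 (ENSMUSG00000092274) lies on the same strand at chr19:5824708-5845478, with 1 merged exon of 20771 bases. Snhg1 (ENSMUSG00000108414) is at chr19:8723475-8726443 on the plus strand, and Mirt1 (ENSMUSG00000097636), a gene of 10 merged exons, is at chr19:53443230-53464796 on the minus strand. Chromosome 19 thus holds 4 of the 6 listed genes. Gas5 (ENSMUSG00000053332) is at chr1:161034422-161038539 on the plus strand. Kcnq1ot1 (ENSMUSG00000101609) spans chr7:143203458-143296549 on the minus strand as 1 exon of 93092 bases, antisense to Kcnq1. The annotation places 10 snoRNA genes inside Gas5 and 8 inside Snhg1, and 0 of either are among the listed genes. Merged over transcripts, the exons of Snhg1 cover its whole span of 2969 bases and those of Gas5 cover 3760 of 4118. The snoRNA genes inside Snhg1 thus lie within its merged exon. Why none is listed was not tested, and their absence is not read as a lack of snoRNAs.

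Start-site windows from RefSeq on GRCm38.p6, from 250 bases before to 50 bases after the start of the transcript, were found for 5 of the 7 genes. They were searched on both strands for the NF-kappaB motif, the AP-1 motif TGANTCA, the antioxidant response element TGACNNNGC and the TATA box TATAAA. The windows of Mirt1 and Kcnq1ot1 are shown whole because these genes differed most between groups, with motif matches in capitals.
Mirt1, chr19:53464747-53465046, minus strand: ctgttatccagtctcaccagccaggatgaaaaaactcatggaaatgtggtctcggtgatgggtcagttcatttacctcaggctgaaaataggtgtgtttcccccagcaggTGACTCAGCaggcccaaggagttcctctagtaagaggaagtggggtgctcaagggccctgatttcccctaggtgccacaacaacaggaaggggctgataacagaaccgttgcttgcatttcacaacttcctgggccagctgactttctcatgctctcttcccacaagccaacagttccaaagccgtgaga
Kcnq1ot1, chr7:143296498-143296797, minus strand: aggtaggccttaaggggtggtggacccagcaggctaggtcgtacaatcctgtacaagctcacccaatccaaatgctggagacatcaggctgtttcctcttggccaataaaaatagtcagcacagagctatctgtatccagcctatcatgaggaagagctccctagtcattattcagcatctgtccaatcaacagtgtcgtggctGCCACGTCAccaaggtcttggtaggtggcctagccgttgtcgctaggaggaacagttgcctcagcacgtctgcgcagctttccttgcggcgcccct

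In Mirt1, a single stretch of 9 bases starting 140 bases before the start site matches both the AP-1 motif and the antioxidant response element, which overlap there. In Kcnq1ot1 the antioxidant response element matches on the opposite strand, from 46 to 38 bases before the start. Of all 32851 windows, 7.81% hold the AP-1 motif and 12.4% the antioxidant response element, so that neither match is rare. The stretches around the starts of the 2 snoRNA host genes and Malat1 are shown to compare their start sites, from 50 bases before to 30 bases after the start.
Gas5, chr1:161035116-161035195, plus strand: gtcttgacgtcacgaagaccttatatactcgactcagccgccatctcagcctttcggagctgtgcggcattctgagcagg
Snhg1, chr19:8723437-8723516, plus strand: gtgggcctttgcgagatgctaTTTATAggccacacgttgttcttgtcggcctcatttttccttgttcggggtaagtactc
Malat1, chr19:5802643-5802722, minus strand: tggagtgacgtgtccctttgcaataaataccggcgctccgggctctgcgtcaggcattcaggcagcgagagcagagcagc

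The Gas5 window shown is the second of its 2 windows. A run of pyrimidines covers the first transcribed base there, of 6 bases, while the first Gas5 window starts at a G with no such run. The run is of 4 bases in Snhg1 and 2 in Malat1. Snhg1 holds the TATA box letters on the opposite strand, as do 13.6% of all windows on either strand, and no window of these genes holds the NF-kappaB motif, which 8.46% of all windows hold.

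The 6 lncRNAs covered a wide range of levels. Malat1 had a mean normalized count of 616562 ± 52755 (SD, n = 20) and accounted for 1.27% to 1.74% of a library's reads, while Mirt1 had 50.7 ± 22.8, from 21 to 94 reads. Per kilobase of exon, Malat1 was at 88295 normalized counts, the third highest among the listed lncRNA genes after Gm26917 and Gm42418. On the same scale Neat1 was at 1619, Gas5 at 321.4, Snhg1 at 63.9, Kcnq1ot1 at 40.8 and Mirt1 at 5.92. Kcnq1ot1 therefore had more counts than Gas5 but a lower level per kilobase, as its exon is far longer. By level per kilobase, Snhg1 ranked 429, Kcnq1ot1 664 and Mirt1 1827 among the 1941 listed lncRNA genes. For Gas5 and Snhg1 the merged exons take in most or all of the gene, so these levels may not be those of the spliced RNAs.

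**Figure D1:**
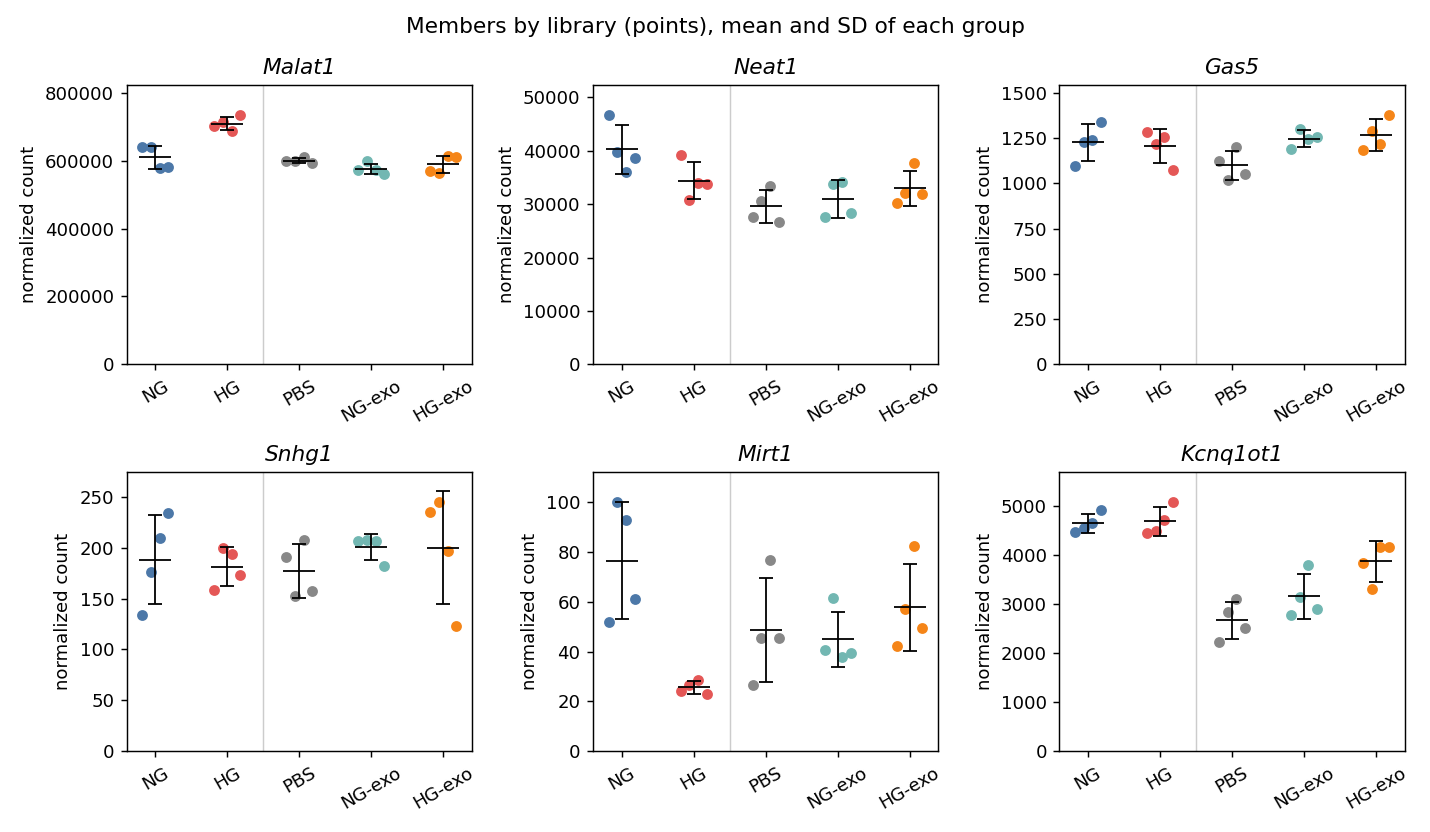
Normalized count (y axis, linear, from 0) of each listed gene in the 20 libraries, by group on the x axis (NG, normal glucose; HG, high glucose; NG-exo and HG-exo, BMDM-NG-exo and BMDM-HG-exo). Points are libraries and bars the mean and SD (n = 4); Mirt1 in high glucose stays at or below 28.8, and Kcnq1ot1 in PBS stays at or below 3095.

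Mirt1 differed most between the glucose groups. The normal glucose libraries had normalized counts of 52.0, 100.3, 93.0 and 61.2, and those of high glucose had 24.3, 26.5, 28.8 and 22.9. All 4 high glucose libraries were lower than all 4 normal glucose libraries, and the spread was wider in normal glucose. The fold change on the log2(normalized count + 1) scale was -1.50 (SE 0.31), and since Mirt1 was chosen for this difference it is a description and was not tested. The values rest on 56 to 94 reads per normal glucose library and 21 to 30 per high glucose library.

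Malat1 was higher in high glucose. The normal glucose libraries had normalized counts of 639242, 639860, 578613 and 582431 and those of high glucose 701157, 712719, 687452 and 734374, so that the groups did not overlap, with a log2 fold change of 0.22 (SE 0.039). With quantile normalization, which sets the most abundant genes equal by rank, this log2 fold change was 0. Neat1, the paraspeckle RNA, went the other way, from 40269 ± 4563 in normal glucose to 34389 ± 3495 in high glucose (SD, n = 4). The highest high glucose library of Neat1, at 39175, lay within the range of the normal glucose libraries, from 36008 to 46700, and its log2 fold change was -0.23 (SE 0.054).

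The snoRNA host genes and Kcnq1ot1 lay close together in the 2 glucose groups. Gas5 was at 1225 ± 99.8 in normal and 1205 ± 92.9 in high glucose, and Snhg1 at 188.4 ± 43.5 and 181.5 ± 19.0. Kcnq1ot1 was at 4646 ± 194.0 in normal and 4682 ± 294.0 in high glucose (SD, n = 4 for each), with log2 fold changes of -0.02 for Gas5, -0.03 for Snhg1 and 0.01 for Kcnq1ot1. Over all genes, 13.3% had an adjusted p-value under 0.05 in this contrast by limma and 16.3% had groups that did not overlap. Of the 6 lncRNAs, 3 and 2 did so, and nothing is read from these counts because this contrast was used in the choice. The summed macrophage markers also differed between these groups, at 649310 to 724960 in the normal and 830030 to 900560 in the high glucose libraries, as did the 2 endothelial markers, at 289.6 to 327.1 and 329.3 to 456.1, and their part in the differences of the lncRNAs was not tested.

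The exosome contrasts were not used in the choice. By limma on all 12 libraries and without the date as a block, Kcnq1ot1 was the only 1 of the 6 lncRNAs called in any of them, and it was higher after BMDM-HG-exo. Neat1 and Gas5 were called under some alternatives, given with their values. Its normalized counts were 2225, 2834, 3095 and 2512 with PBS, 2771, 3136, 3800 and 2906 with BMDM-NG-exo, and 3832, 3298, 4170 and 4162 with BMDM-HG-exo, with the 4 dates in the same order in each group. All 4 BMDM-HG-exo libraries were above all 4 PBS libraries, while BMDM-NG-exo lay in between and overlapped both. The summed macrophage markers differed here too, at 818880 to 866340 with PBS and 739990 to 798460 with BMDM-NG-exo. With BMDM-HG-exo they were at 757600 to 783540, so both exosome groups lay below PBS without overlap. The part of this in the exosome results was not tested.

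Against PBS, Kcnq1ot1 was higher with BMDM-HG-exo by a log2 fold change of 0.54 (SE 0.081, 95% confidence interval 0.38 to 0.70, limma adjusted p = 1.44e-05). In this contrast 5.4% of all genes tested were called and 10% had groups that did not overlap, against 1 of the 6 lncRNAs in each. The call was lost without the trend of the variance on the mean (adjusted p = 0.0647) and held in the other alternatives. Against the combined PBS and BMDM-NG-exo controls, where 0.201% of genes were called, the log2 fold change was 0.42 (95% confidence interval 0.24 to 0.60, limma adjusted p = 0.0392). That call was lost with DESeq2 (adjusted p = 0.0784) and without the trend (limma adjusted p = 0.400). It was also lost when any of 5 libraries was left out, with adjusted p-values by limma of 0.0926 without PBS 2, 0.0909 without PBS 4, 0.248 without BMDM-HG-exo 1, 0.183 without BMDM-HG-exo 3 and 0.0867 without BMDM-HG-exo 4.

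The calls for the donor cells' glucose and for the exosomes as such depended on the use of the dates. For BMDM-HG-exo against BMDM-NG-exo, where 0.0139% of genes were called, Kcnq1ot1 had a log2 fold change of 0.30 (95% confidence interval 0.13 to 0.46, limma adjusted p = 0.288), and with the date as a block the adjusted p was 0.0299. Between BMDM-NG-exo and PBS, where 3.34% of genes were called, it was 0.24 (0.08 to 0.41, limma adjusted p = 0.107), and with the block 0.0129. Leaving out PBS 3 or BMDM-NG-exo 1 also gave adjusted p-values under the threshold in the latter contrast, 0.0163 and 0.0343, while the log2 fold change dropped to 0.16 without PBS 1 (adjusted p = 0.449) and to 0.15 without BMDM-NG-exo 3 (adjusted p = 0.473). Kcnq1ot1 rose from PBS to BMDM-NG-exo to BMDM-HG-exo on each of the 4 dates, with differences between BMDM-HG-exo and PBS of 0.22 to 0.78 on the log2 scale. These contrasts share libraries and are not independent of one another.

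**Figure D2:**
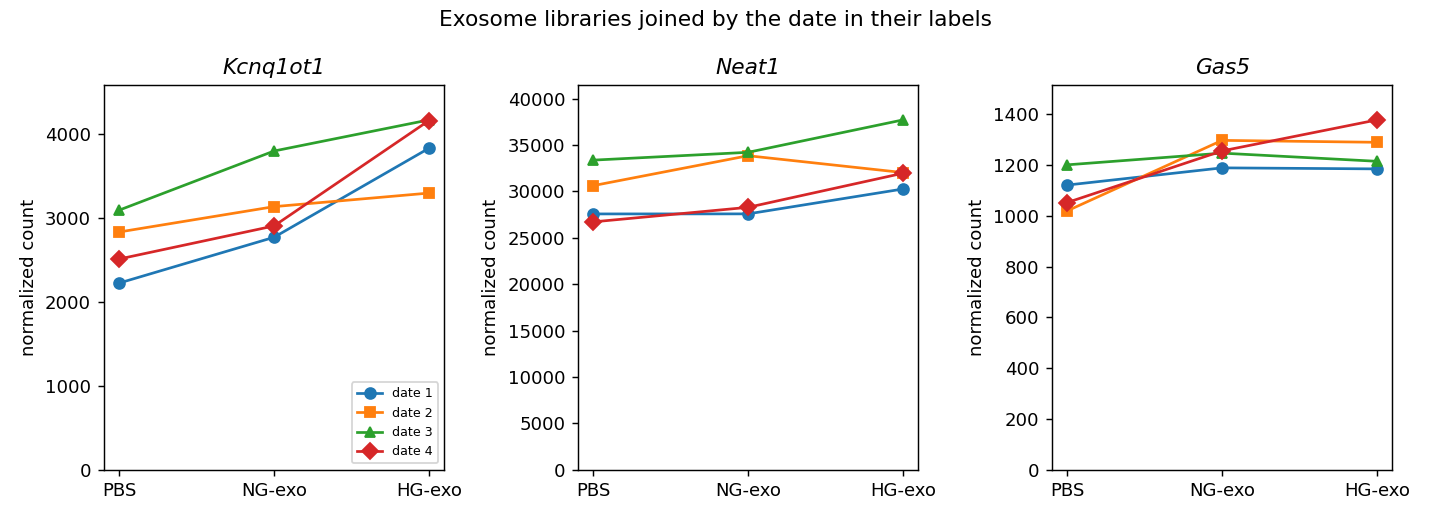
Normalized count (y axis, linear, from 0) of Kcnq1ot1, Neat1 and Gas5 in the 12 exosome libraries, by treatment on the x axis, with the libraries of a date joined by a line. Kcnq1ot1 is higher with BMDM-HG-exo than with PBS on 4 of 4 dates, as are Neat1 and Gas5.

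Summed levels of other transcript classes were also highest with BMDM-HG-exo among the exosome groups. The summed normalized count of the 765 listed genes of type TEC, transcript models that still await experimental evidence, was 65918 ± 6131 with PBS, 66796 ± 6508 with BMDM-NG-exo and 74725 ± 5762 with BMDM-HG-exo, and that of the 114 sense intronic genes was 8021 ± 531.5, 7753 ± 516.4 and 8517 ± 516.8 (SD, n = 4). The sense intronic mean was lower with BMDM-NG-exo than with PBS, unlike that of Kcnq1ot1. The summed normalized count of the 204 listed protein-coding genes over 300 kb was 498358 ± 6349 with PBS and 506888 ± 8323 with BMDM-NG-exo. With BMDM-HG-exo it was 520568 ± 7779 (SD, n = 4). The means of this sum and of the TEC sum were in the same order as those of Kcnq1ot1. The part of these classes in the result was not tested. Relative to the TEC sum, Kcnq1ot1 was at 4.03% ± 0.21 with PBS, 4.71% ± 0.23 with BMDM-NG-exo and 5.17% ± 0.21 with BMDM-HG-exo, and these 3 sets of libraries did not overlap except for the highest BMDM-NG-exo library, at 5.04%, above the lowest BMDM-HG-exo library, at 4.85%. Relative to the sense intronic sum, BMDM-NG-exo (37.3% to 44.6%) overlapped BMDM-HG-exo (41.4% to 47.4%) but not PBS (30.2% to 36.0%). Relative to the sum of protein-coding genes over 300 kb, BMDM-NG-exo, at 0.554% to 0.732%, overlapped both other groups. PBS was there at 0.453% to 0.613% and BMDM-HG-exo at 0.647% to 0.792%. The 2 genes most like Kcnq1ot1 over the 20 libraries, Gm37589 (Pearson r = 0.97) and Gm44667 (r = 0.96), are of type TEC.

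**Figure D3:**
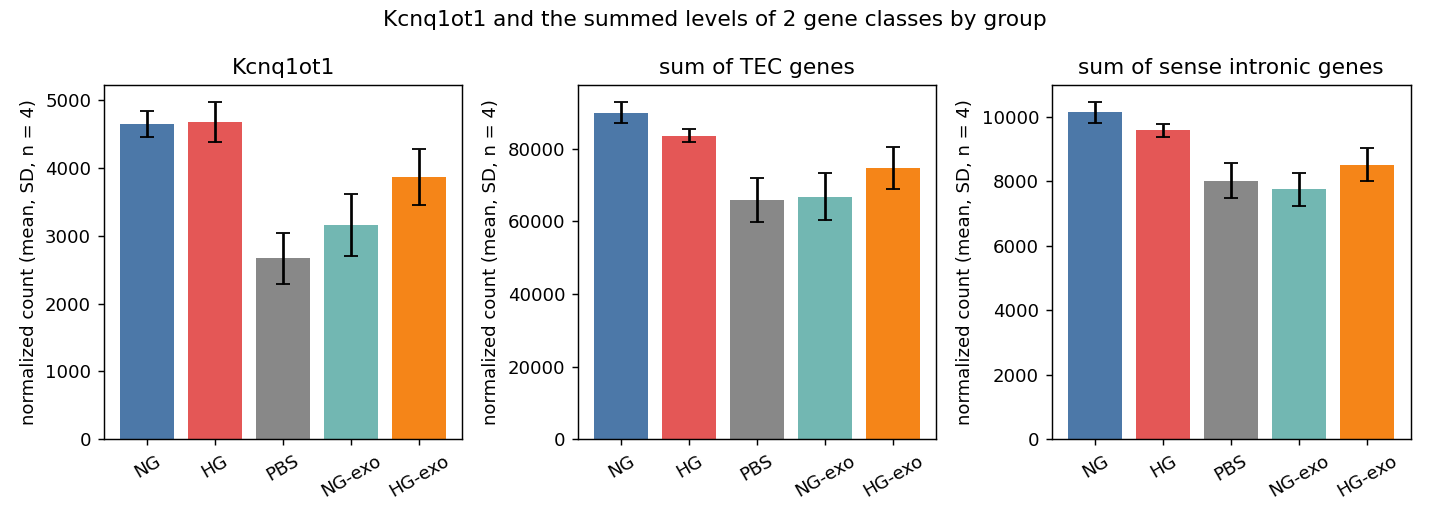
Mean normalized count and SD (bars from 0, n = 4) of Kcnq1ot1, of the sum of the 765 TEC genes and of the sum of the 114 sense intronic genes, by group. All 3 have their lowest means in PBS and BMDM-NG-exo, and in Kcnq1ot1 the BMDM-NG-exo mean lies above PBS.

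Kcnq1ot1 was also higher in the glucose experiment, with 4439 to 5085 normalized counts in the 8 glucose libraries and at most 4170 in the 12 exosome libraries. The experiments were separate cultures, so their handling and the treatment cannot be told apart. Kcnq1, on the opposite strand, averaged 17.3 normalized counts and was not called in any exosome contrast. Of the 11 listed genes of the Kcnq1 imprinted cluster, 0 were called in the 4 exosome contrasts by limma, edgeR or DESeq2 and at most 1 had an unadjusted p under 0.05. Their median log2 fold change between BMDM-HG-exo and PBS was 0.02, beside 0.003 over all genes. In the glucose contrast Cd81, a tetraspanin gene of the cluster, was called, at 0.18 (limma adjusted p = 0.00408).

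Neat1 and Gas5 were higher on each date with BMDM-HG-exo than with PBS, but they were not called. Neat1 was at 27570, 30620, 33369 and 26713 with PBS and at 30256, 32031, 37706 and 31955 with BMDM-HG-exo, with groups that overlapped and a log2 fold change of 0.16 (95% confidence interval 0.04 to 0.28, limma adjusted p = 0.143). With the date as a block the adjusted p was 0.000419, and without PBS 3 it was 0.0181. Without BMDM-HG-exo 3 the log2 fold change was 0.09 (limma adjusted p = 0.519). Gas5 was at 1121, 1019, 1200 and 1052 with PBS and at 1184, 1289, 1214 and 1377 with BMDM-HG-exo, a log2 fold change of 0.21 (0.07 to 0.35, limma adjusted p = 0.0757). With DESeq2 the adjusted p was 0.0383, and without PBS 3 it was 0.0300 by limma.

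Malat1, Snhg1 and Mirt1 were not called in any exosome contrast. The intervals of Malat1 were narrow, between -0.12 and 0.09 on the log2 scale for the 3 comparisons of 2 groups. Those of Mirt1 were wide, -0.32 to 1.01 for BMDM-HG-exo against BMDM-NG-exo, so that a 2-fold rise lay within it at this depth. For Snhg1 the interval in that contrast was -0.42 to 0.31. With limma, 2 of the 6 lncRNAs had an unadjusted p under 0.05 between BMDM-NG-exo and PBS (13.5% of all genes). The count was 3 between BMDM-HG-exo and PBS (16.9%) and 2 against combined controls (10.5%). It was 1 for BMDM-HG-exo against BMDM-NG-exo (6.54%), where none was called by limma, edgeR or DESeq2 without the block.

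**Figure D4:**
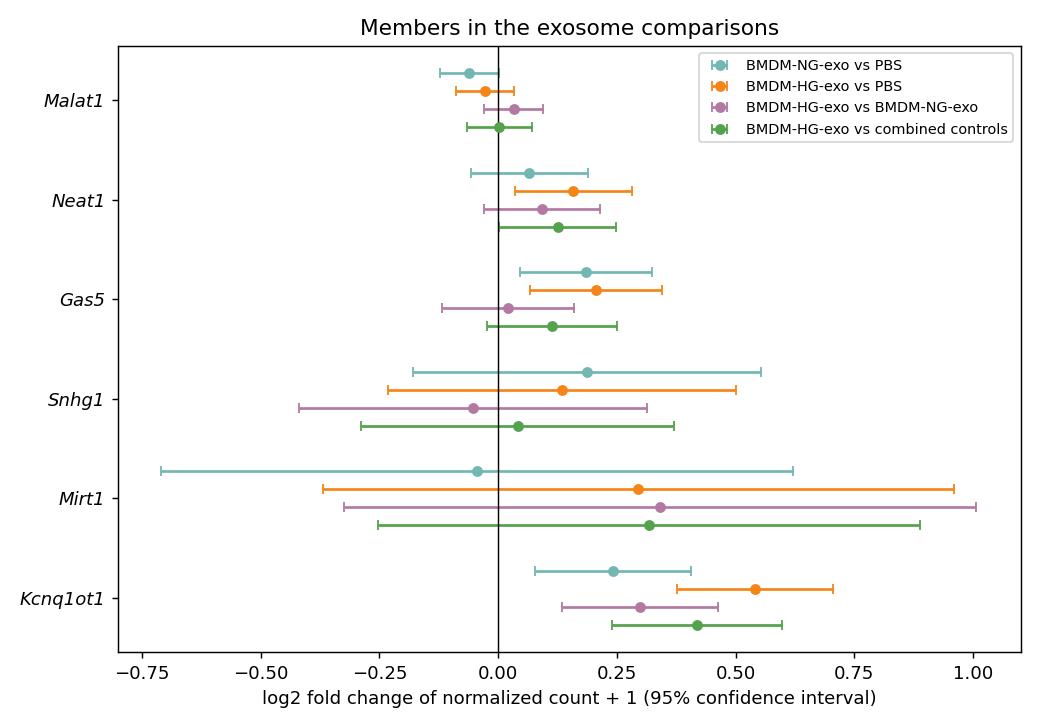
Log2 fold change (x axis) of the 6 listed lncRNAs (y axis) in the 4 exosome contrasts, with 95% confidence intervals from limma. The intervals of Kcnq1ot1 lie above 0 in all 4, and those of Mirt1 and Snhg1 are the widest.

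Lists of proteins that work with these RNAs, and of related genes, were examined. Over all genes, limma called 13.3% in high glucose and 0.0139% to 5.4% in the exosome contrasts. At such exosome shares, lists this short would hold few or no calls, so their absence with exosomes is not read as a result. Of 14 paraspeckle proteins, 0 were called in the exosome contrasts by limma, edgeR or DESeq2, with at most 1 at an unadjusted p under 0.05 in a contrast. Of 14 nuclear speckle proteins, the splicing factor Srsf5 fell by 0.13 with BMDM-HG-exo against PBS (limma adjusted p = 0.0219), and it was the only limma call of that list, while DESeq2 called 1 for BMDM-HG-exo against BMDM-NG-exo. Of 14 nonsense-mediated decay factors, limma called 28.6% in high glucose, beside 13.3% of all genes. The exon junction factor Eif4a3, Smg5 and the helicase Upf1 rose (0.18, 0.19 and 0.14) and the nuclease Smg6 fell by 0.19. With exosomes 0 of these factors were called by the 3 tools, with at most 3 at an unadjusted p under 0.05. Zfas1 was the only 1 of 15 other listed snoRNA host genes called, at 0.40 in high glucose (limma adjusted p = 0.00809). Of 11 listed mRNAs encoded by mitochondria, mt-Cytb fell by 0.19 in high glucose. It was the only limma call, and DESeq2 called 0 of them there. For BMDM-HG-exo against BMDM-NG-exo, 6 of the 11 had an unadjusted p under 0.05 by limma, all lower, beside 6.54% of all genes. In that contrast 0 were called, and the median log2 fold change of the 11 was -0.13.

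Some of the 23 listed genes for the TLR4 to TRAF6 pathway, on which Mirt2 is known to act, changed in each experiment. Most were not called in a given contrast. In high glucose 8 of 23 rose and 0 fell, where 7.74% of all genes rose and 5.53% fell. Those that rose included Cd14, the TLR4 co-receptor (log2 fold change 0.39, limma adjusted p = 1.19e-08), Nfkbia, an inhibitor of NF-kappaB (0.40), Nfkbiz, a nuclear regulator of NF-kappaB target genes (0.50), and Tlr4 (0.28). With exosomes 6 of 23 fell and 0 rose against PBS, both for BMDM-NG-exo and for BMDM-HG-exo, where 2.32% and 3.43% of all genes fell and 1.02% and 1.97% rose. Nfkbiz (-0.50 and -0.44), Cd14 (-0.31 and -0.32), Nfkbia (-0.35 and -0.32) and Tnfaip3 (-0.33 and -0.40) were in both sets. Traf6 was not called in any contrast, at 0.02 in high glucose and at 0.07 and 0.05 with exosomes against PBS. Tlr4 was not called with exosomes, at -0.04 and 0.01 against PBS. The 2 contrasts against PBS share their PBS libraries. Cd14 is also among the macrophage markers summed above. For BMDM-HG-exo against BMDM-NG-exo, 0 of 23 were called by limma, edgeR or DESeq2 and 0 had an unadjusted p under 0.05. The list was chosen with earlier results of these data known.

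Among 20 other listed lncRNA genes of a fixed list, Firre, a nuclear organiser RNA of the X chromosome, fell by 0.40 in high glucose (limma adjusted p = 0.000194) and Dleu2 by 0.18. Mir22hg fell by 0.44 and Mir99ahg, both hosts of miRNA genes, rose by 0.25 with BMDM-HG-exo against PBS. Gm26917 fell with both kinds of exosome, by 0.29 and 0.28.

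Some genes beside or across the lncRNAs were called in the glucose contrast. Dusp5, a phosphatase gene 64312 bases from Mirt1 on the opposite strand, was at 211.9 in normal and 129.3 in high glucose (log2 fold change -0.70, limma adjusted p = 0.00711). Zbtb37, which overlaps Gas5 on the opposite strand, was at 1336 in normal and 1033 in high glucose, -0.37 on the log2 scale (limma adjusted p = 0.000175), while Gas5 lay at -0.02. Gm37376, on the strand opposite Malat1, was at 147.2 and 210.1 (0.53, limma adjusted p = 0.0295). None of the overlapping and nearest genes was called in an exosome contrast.

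Over the 20 libraries, the genes most like Malat1 were Zup1 (Pearson r = 0.92) and Herc6 (0.91), those most like Neat1 were Nlrp1b (0.88) and E030022I16Rik (0.82), and those most like Mirt1 were Eef2k (0.84) and Arrdc3 (0.83). For Gas5 they were Pitpnb (0.75) and Gmfb (0.72), and for Snhg1 Vdac2 (0.77) and 1700008J07Rik (0.77). The 20 libraries come from 2 experiments and 5 groups, so these values describe likeness only.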

How the data were processed

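The deposited signal is a gene count of each long RNA library divided by its DESeq2 median-ratio size factor by the authors, after cutadapt trimming, STAR mapping to GRCm38 and strand-specific featureCounts counting. The annotation used for counting is not given in the sources used here. GENCODE M21 gave names, types and coordinates. Whole reads were recovered from the smallest step of each column. No 2 libraries of a group were copies (chi-square per degree of freedom 5.19 to 41.9 over 30 pairs).

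Log2(normalized count + 1) was fitted in R 4.3.3 with limma 3.58.1 (trend, two-sided) for genes with a mean of at least 10, p-values adjusted by Benjamini-Hochberg over every gene in the fit, and calls at an adjusted p under 0.05, for the combined controls also with a log2 fold change past 0.15 in size. Alternatives used edgeR 4.0.16 and DESeq2 1.42.0 on the recovered reads, other pseudocounts, filters and scalings, a replicate block and each library left out. The block paired the exosome libraries by the date in their labels, and what was shared on a date is not stated. The residuals of same-date libraries correlated at 0.012 on average over 12 pairs, beside -0.004 over 36 pairs of different dates. Named genes were the members, overlapping and nearest listed genes and the 2 most alike per member with a mean of at least 50. The called genes of fixed lists (at most 4 by p per contrast), Traf6 and the lncRNAs of highest level were also named. The members and lists were chosen with earlier results of these data known. The result for 1 gene of a list is not reported here. The fits were tested on simulated data. There most changes of genes with low counts were missed, so a missing call says little for genes at the level of Mirt1. DESeq2 gave more false calls on these data than the threshold of 0.05 implies.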

Additional observations from a re-analysis of the deposited data

Results flagged for a closer look

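Each of the 6 listed lncRNAs was examined in each of the 5 groups for a library apart from the other 3 by Dixon's gap test, 30 groups in all, of which chance marks about 1 in 20. In the BMDM-NG-exo group, Snhg1 was lowest in library 4, at 181.8 normalized counts, while the other 3 lay between 206.5 and 207.7. In the same group, Mirt1 was highest in library 2, at 61.4, while the other 3 lay between 38.0 and 40.7. Neither gene was called in a contrast with this group, with or without these libraries.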

How the results depend on the processing

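Kcnq1ot1 was higher with BMDM-HG-exo than with PBS in all 22 alternatives, with log2 fold changes of 0.46 to 0.62 when single libraries were left out. Without the trend, 654, 95, 296, 1 and 1 genes were called in the order high glucose, BMDM-NG-exo against PBS, BMDM-HG-exo against PBS, BMDM-HG-exo against BMDM-NG-exo and against combined controls (1914, 481, 779, 2 and 29 as reported), and 1 lncRNA of the 6 was called in high glucose and 0 elsewhere. DESeq2 called 28 genes for BMDM-HG-exo against BMDM-NG-exo and 136 against combined controls, and 2 of the lncRNAs against PBS but 0 against combined controls. BMDM-HG-exo against BMDM-NG-exo gave 5 genes with a pseudocount of 5, a mean of at least 50 or TMM factors, and 1 with edgeR. Against combined controls a pseudocount of 5 gave 47 genes and quantile normalization 19. With the date as replicate block, 25 genes were called for BMDM-HG-exo against BMDM-NG-exo, and 1 lncRNA there, 1 between BMDM-NG-exo and PBS and 2 between BMDM-HG-exo and PBS. The block changed no other call of a lncRNA in the exosome contrasts. The glucose libraries share only the numbers 1 and 6, of unstated meaning, and a replicate block on them left 788 genes and 1 lncRNA.

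Leaving out single libraries gave 1370 to 2027 genes in high glucose, 308 to 514 between BMDM-NG-exo and PBS (308 without BMDM-NG-exo 3), 586 to 815 between BMDM-HG-exo and PBS, 1 to 7 for BMDM-HG-exo against BMDM-NG-exo, and 1 to 204 against combined controls (204 without BMDM-NG-exo 3, 1 without BMDM-HG-exo 1). The lncRNAs called then numbered 0 to 1 between BMDM-NG-exo and PBS, 1 to 3 between BMDM-HG-exo and PBS and 0 to 1 against combined controls. Quantile normalization brought the log2 fold change of Malat1 in high glucose from 0.22 to 0, since it sets the most abundant genes of all libraries equal by rank. Except where a construction is named, the cause was not tested. At 21 to 94 reads per library, Mirt1 was the least precise.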
